A study of Mus musculus with 12 samples.

Results

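Transcript levels of 10 genes of lysosomes, lipid handling and lipid-laden phagocytes were followed through the spinal cords of Ddx20 mutant and control mice: Gpnmb, Cd63, Atp6v0d2, Mcoln3, Plin2, Fabp5, Spp1, Lgals3, Mitf and Tfec. They were picked by symbol from the 56953 genes of the deposited tables, with earlier results of the same cKO against control comparison known. Their values in that comparison are therefore given as a description and without a p-value, and calls of members only as counts or as kept or lost. All 10 were among the 19278 genes tested, and 7 of them held counts past the filter on low counts in every library. Atp6v0d2 and Mcoln3 passed it only through the cKO libraries of 4.5 weeks, and Tfec through those and 1 cKO library of 4 weeks.

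The study compared mice with loxP-flanked (flox/flox) Ddx20 alleles crossed with the Plp-CreER transgene, called Ddx20 cKO, with control mice. The driver is a Cre recombinase that tamoxifen activates, made in oligodendrocyte-lineage cells and Schwann cells. Messenger RNA of the spinal cord was sequenced at 4 and at 4.5 weeks after tamoxifen in 3 control and 3 cKO mice each, which makes 12 libraries in 4 groups. The labels give neither the alleles of the controls nor the age of the mice, and they describe the 3 libraries of a group as independent biological replicates.

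Gpnmb is a transmembrane glycoprotein of lysosomes and phagosomes, made by melanocytes, osteoclasts and macrophages that take up large amounts of lipid or debris. Macrophages and microglia that engulf myelin must degrade its lipid in lysosomes, export cholesterol or store it as ester in lipid droplets. The MiT/TFE family of transcription factors (Mitf, Tfec, Tfeb and Tfe3) binds E-box and M-box elements of lysosomal genes and is held in the cytoplasm by nutrient signalling at the lysosome. In myelin disease such cells are known as foamy macrophages.

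The libraries held 33104560 to 47677267 counts and 23282 to 24999 detected genes. Ddx20 transcript itself was not lower in cKO (log2 fold change -0.03 ± 0.103 SE at 4 weeks and 0.33 ± 0.102 at 4.5 weeks), and whether the counted reads lie within the deleted part cannot be said from gene totals. Xist, the transcript of the inactive X chromosome in females, was at 0 to 3 counts in the 3 controls and cKO library 3 of 4 weeks and at 13563 counts or more in the other 8 libraries, so sex and genotype are partly mixed at 4 weeks. Control libraries 1 and 2 of 4.5 weeks reached 158.5 CPM (counts scaled to one common library size) of summed sensory ganglion markers and 147.9 CPM of skeletal muscle markers at most. Because whole tissue was sequenced, fewer or more cells of a type and less or more RNA per cell cannot be told apart.

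The promoters of Gpnmb, Plin2 and Spp1 are shown because they stand for the lysosomal, lipid droplet and secreted genes and each holds a match to a different motif of the search. The sequences are from RefSeq (build GRCm38.p6), from 150 bases before to 15 bases after the start site, written 5′ to 3′ on the strand of the gene, with the motif in capitals: an AP-1 match in Gpnmb (chr6:49036368-49036532, + strand), an E-box in Plin2 (chr4:86670045-86670209, - strand) and a PU.1 core in Spp1 (chr5:104434961-104435125, + strand).
Gpnmb: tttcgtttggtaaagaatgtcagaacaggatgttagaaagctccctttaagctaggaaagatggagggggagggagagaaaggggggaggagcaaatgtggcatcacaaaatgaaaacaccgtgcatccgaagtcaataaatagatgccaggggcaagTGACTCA
Plin2: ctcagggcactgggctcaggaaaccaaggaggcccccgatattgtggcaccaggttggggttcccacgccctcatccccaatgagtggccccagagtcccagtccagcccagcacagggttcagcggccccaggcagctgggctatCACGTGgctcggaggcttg
Spp1: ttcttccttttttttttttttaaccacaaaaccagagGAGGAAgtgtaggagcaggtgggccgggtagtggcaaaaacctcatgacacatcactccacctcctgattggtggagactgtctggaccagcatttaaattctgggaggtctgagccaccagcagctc
In full windows of 250 bases before to 50 after the start, 8 of the 10 genes had an entry (11 windows), and Atp6v0d2 and Fabp5 had none. The E-box CACGTG, searched on both strands, stood only in Plin2, at positions -4 to 2, and in 7.15% of all 32851 windows of the table. The M-box core CATGTG, the element known from pigment cell genes, was in none of the 11 windows and in 14.2% of all. The AP-1 element TGANTCA was found only in Gpnmb, at positions 9 to 15, and in 7.81% of all windows. The PU.1 core GAGGAA, an element of myeloid genes, lay in Cd63, Mcoln3, Spp1 and Tfec, which is 4 of 11 windows against 28.3% of all. None of these matches overlaps another, and each is a description of letters within this window.

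Gpnmb had the largest difference of the genotype effect between the 2 times among the 7 genes with counts past the filter in every library. At 4 weeks its level was 3.63, 3.01 and 2.10 CPM in the controls and 13.9, 18.8 and 15.7 CPM in cKO. At 4.5 weeks it was 3.44, 3.66 and 3.96 CPM in the controls and 2398, 2338 and 2492 CPM in cKO. The 3 cKO libraries lay above the 3 controls at both times, and at 4.5 weeks they differed from each other by no more than 1.07-fold. The log2 fold change was 2.47 ± 0.157 (SE) at 4 weeks and 9.35 ± 0.178 at 4.5 weeks, so that the genotype effect was larger by 6.88 ± 0.228 at the later time. The fold at 4.5 weeks was 652 (95% interval 499 to 853), the tenth largest log2 fold change of all 19278 genes tested (rank 10), against rank 583 at 4 weeks.

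**Figure D1:**
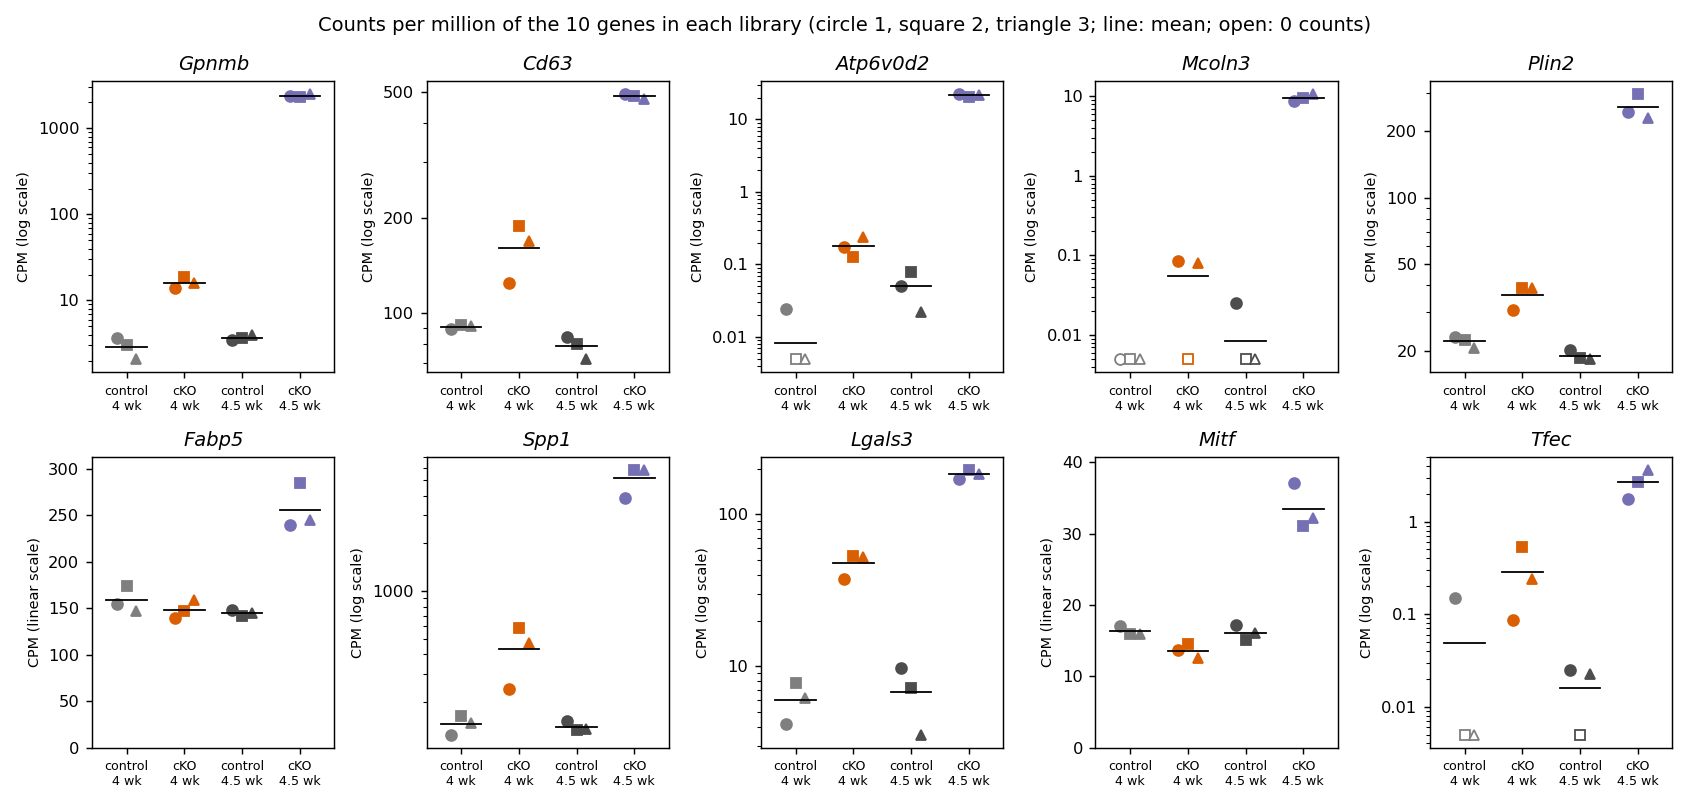
Levels in CPM of the 10 genes in each library, by group (x axis), with a circle, square and triangle for libraries 1, 2 and 3 and a line at the mean of 3 libraries; axes are logarithmic except for Fabp5 and Mitf, and open symbols at the bottom mark 0 counts. Gpnmb reached 2338 to 2492 CPM in cKO at 4.5 weeks and at most 3.96 CPM in any control.

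Cd63, a tetraspanin of late endosomes and lysosomes that is also on exosomes, was at 89.3, 91.9 and 91.3 CPM in the controls of 4 weeks and at 125, 188 and 169 CPM in cKO. The levels at 4.5 weeks were 84.6, 80.2 and 71.9 CPM in the controls and 492, 488 and 477 CPM in cKO. The groups did not overlap at either time, and cKO library 1 was the lowest of its group at 4 weeks. Its log2 fold change was 0.82 ± 0.115 at 4 weeks and 2.62 ± 0.121 at 4.5 weeks. Cd63 has processed pseudogenes in the mouse, so its estimated counts may include or miss shared reads.

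Atp6v0d2, a subunit of the membrane part (V0) of the proton pump found in osteoclasts and some macrophages, was almost unseen outside the cKO libraries of 4.5 weeks. It had 1, 0 and 0 counts in the controls of 4 weeks, 6, 5 and 9 in cKO of 4 weeks and 2, 3 and 1 in the controls of 4.5 weeks. In cKO at 4.5 weeks it had 897, 736 and 783 counts, or 22.3, 20.1 and 22.0 CPM. The ratio of depth-scaled summed counts of cKO over control was 20.1 at 4 weeks (95% counting interval 3.21 to 832) and 441 at 4.5 weeks (202 to 1202). Every cKO library stood above every control at both times, although the values at 4 weeks rest on 20 counts against 1.

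Mcoln3, a cation channel of the mucolipin family in endosomes and lysosomes, had no count in the 3 controls of 4 weeks, which allows up to 0.0268 CPM over the group. The cKO libraries of 4 weeks had 3, 0 and 3 counts, with library 2 at 0 like the controls. Their depth-scaled sum was 2.01 times a floor of 3 counts over the control group. The lower bound of the counting interval of cKO over control was 1.18, and no upper bound exists. The call of Mcoln3 at 4 weeks was kept in 6 of 14 alternatives. At 4.5 weeks the controls had 1, 0 and 0 counts and cKO 352, 343 and 378 counts (8.74, 9.39 and 10.6 CPM). The ratio at 4.5 weeks was 1174 with a counting interval of 210 to 46432, which is wide because the controls held a single count.

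Plin2, the perilipin that coats cytoplasmic lipid droplets, was at 23.3, 22.5 and 20.7 CPM in the controls of 4 weeks and at 30.7, 38.6 and 38.7 CPM in cKO. At the later time its level was 20.3, 18.5 and 18.4 CPM in the controls and 246, 295 and 229.8 CPM in cKO. Neither time showed overlap of the groups. The log2 fold change went from 0.70 ± 0.107 at 4 weeks to 3.75 ± 0.114 at 4.5 weeks, a difference of 3.05 ± 0.152.

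Fabp5, a carrier of fatty acids in the cytoplasm, behaved differently at the early time. Its controls of 4 weeks were at 154, 174 and 147 CPM and cKO at 139.9, 147 and 159 CPM, so the groups overlapped. By 4.5 weeks the controls were at 148, 141 and 145 CPM and cKO at 239.6, 284 and 244 CPM, without overlap. The log2 fold change was -0.09 ± 0.080 (95% interval -0.27 to 0.08) at 4 weeks and 0.82 ± 0.080 at 4.5 weeks. The gene has several processed pseudogenes, and how shared reads were divided is not given in the sources used here.

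Spp1 encodes osteopontin, a secreted ligand of integrins and CD44 that neurons, bone cells and activated phagocytes make. The controls of 4 weeks were at 125, 163 and 148 CPM and cKO at 244, 583 and 469.7 CPM. At 4.5 weeks the controls were at 151, 133 and 136 CPM and cKO at 3845, 5769 and 5806 CPM. All cKO libraries exceeded the controls of their time, with cKO library 1 the lowest at both times. The log2 fold change was 1.57 ± 0.255 at 4 weeks and 5.20 ± 0.297 at 4.5 weeks, and the difference between the times was 3.62 ± 0.363.

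Lgals3, or galectin-3, is a lectin that binds glycans exposed on damaged lysosomes and is also secreted. Its controls of 4 weeks were at 4.19, 7.78 and 6.17 CPM and cKO at 37.7, 53.5 and 52.6 CPM. The controls of 4.5 weeks were at 9.77, 7.16 and 3.56 CPM and cKO at 171, 196 and 185 CPM. The groups were apart at both times, while the controls of 4.5 weeks spread over 2.74-fold. For galectin-3 the log2 fold change was 2.998 ± 0.288 at 4 weeks, the largest at that time among the 7 members with counts in every library, and 4.76 ± 0.297 at 4.5 weeks.

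Mitf, the MiT/TFE factor best known from melanocytes and osteoclasts, was lower in cKO at 4 weeks and higher at 4.5 weeks. At 4 weeks the controls were at 17.1, 16.0 and 16.0 CPM and cKO at 13.7, 14.5 and 12.5 CPM, all 3 below the controls. At 4.5 weeks the controls were at 17.2, 15.1 and 16.0 CPM and cKO at 37.1, 31.1 and 32.2 CPM, all 3 above. Its log2 fold change was -0.27 ± 0.090 at 4 weeks and 1.06 ± 0.089 at 4.5 weeks. The call at 4 weeks was lost in 6 of 15 alternatives: with any of the 3 controls or cKO library 3 left out (-0.28 to -0.21), with no filter on low counts and with each time fitted alone (both -0.27). The direction was the same in all 15.

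Tfec, the macrophage member of the same family, had 6, 0 and 0 counts in the controls of 4 weeks and 3, 21 and 9 in cKO, which overlap. At 4.5 weeks it had 1, 0 and 1 counts in the controls and 70, 98 and 129 counts in cKO (1.74, 2.68 and 3.62 CPM). The ratio of summed counts was 5.52 at 4 weeks (2.28 to 16.1) and 163 at 4.5 weeks (44.6 to 1348). Control library 1 held all 6 control counts of 4 weeks, and without it the difference between the times went from 4.71 to 0.62 on the log2 scale. Counting intervals here cover counting error only, not the spread between mice.

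**Figure D2:**
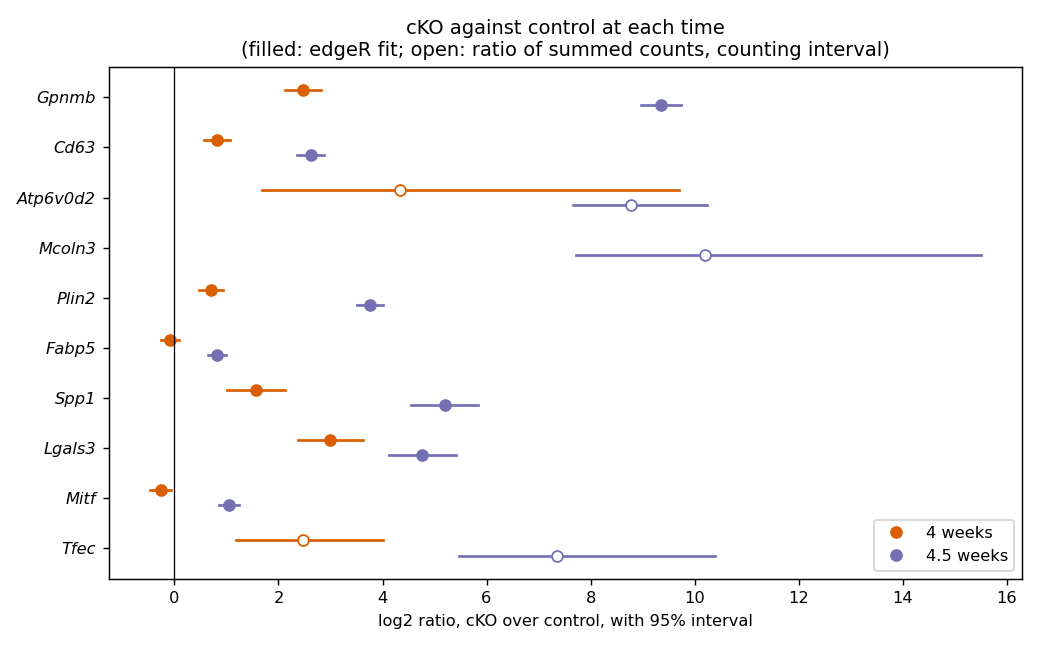
Log2 ratio of cKO over control (x axis) with its 95% interval for each gene (y axis), orange at 4 weeks and purple at 4.5 weeks; filled points are edgeR fits and open points ratios of summed counts. Gpnmb lies at 2.47 and 9.35, Mitf at -0.27 and 1.06, and Mcoln3 has no point at 4 weeks because its controls had no count.

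By the edgeR call (adjusted p below 0.05 over all genes), 7 of the 10 genes were higher and 1, Mitf, lower in cKO at 4 weeks, where 37.2% of all genes tested were called, 20.1% higher and 17.2% lower. At 4.5 weeks all 10 were called higher, beside 65.9% of all genes called, 33.3% higher and 32.6% lower. The difference between the times was called for 8 of the 10, all toward a higher effect at 4.5 weeks, beside 40.7% of all genes, 18.7% higher and 21.9% lower. The rule that chose the genes used both contrasts, so nothing is read from these counts. In single libraries at 4 weeks, 6 genes had all cKO values above the controls and 1 had all below, beside 24.1% and 23.1% of all genes, and at 4.5 weeks 10 were above, beside 36.8% of all genes above and 35.5% below. The median log2 fold change of the 10 was 1.98 at 4 weeks and 4.98 at 4.5 weeks, beside 0.01 and 0.02 over all genes. The 3 low-count genes raise both medians, and the median at 4 weeks rests in part on the fitted value of Tfec. Their fitted values were 3.91 and 8.69 for Atp6v0d2, 4.13 and 9.72 for Mcoln3, and 2.39 and 7.10 for Tfec. With the libraries of 4 weeks fitted alone, 7 members were tested, and their median was 0.82. Sex was mixed with genotype only at 4 weeks. All libraries of 4.5 weeks were female by Xist, so sex also enters the difference between the times. With a sex term 7 of the 10 were called for that difference, but only the cKO group of 4 weeks holds both sexes. That term therefore rests on library 3 against libraries 1 and 2 of that group. At 4 weeks the single male cKO library, library 3, lay above the 3 male controls for 8 genes, below them for Mitf and within their range for Fabp5. Of all genes, 37.6% lay above and 37.6% below. Of the 8, Mcoln3, Atp6v0d2 and Tfec rested on 3, 9 and 9 counts in that library. Its Gpnmb level was 5.40 times the control mean.

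None of the 10 genes was called between the controls of 4 and 4.5 weeks by edgeR, beside 16.7% of all genes (9.53% higher and 7.21% lower). None was below an unadjusted p of 0.05 in edgeR or limma-voom, and 1, Gpnmb, was in DESeq2, where none was called after adjustment. The log2 difference of the controls was 0.34 (95% interval -0.04 to 0.72) for Gpnmb, -0.20 (-0.45 to 0.05) for Cd63 and -0.22 (-0.45 to 0.02) for Plin2. It lay between -0.13 and 0.18 for Fabp5, Spp1, Lgals3 and Mitf. The low-count genes went from 1 to 6 counts over the group for Atp6v0d2 (ratio 5.47, counting interval 0.663 to 251), from 0 to 1 for Mcoln3 and from 6 to 2 for Tfec. These controls differ in sex as well as in time.

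Per kilobase of transcript, which allows levels of different genes to be compared, the order of the 10 differed between the groups. In the controls of 4.5 weeks Fabp5 led with 147 ± 3.5 (SD, n = 3) CPM per kilobase, followed by Spp1 with 93.0 ± 6.6, Cd63 with 71.1 ± 5.8 and Plin2 with 10.1 ± 0.55. Gpnmb was the seventh (position 7) with 0.996 ± 0.071, below Lgals3 at 4.81 ± 2.2 and Mitf at 3.30 ± 0.22, which overlapped each other. In cKO at 4.5 weeks Spp1 led with 3411 ± 744 and Gpnmb was the second in order (position 2) with 651 ± 21 CPM per kilobase, followed by Cd63 with 438 ± 7.2 and Fabp5 with 259.5 ± 25. Plin2 at 136 ± 18 and Lgals3 at 130 ± 8.8 overlapped each other. Atp6v0d2 at 8.45 ± 0.45, Mitf at 6.86 ± 0.65, Mcoln3 at 3.20 ± 0.32 and Tfec at 0.973 to 2.03 closed the order without overlap of neighbours.

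The order in the controls of 4 weeks was much the same, with Fabp5 at 161 ± 14, Spp1 at 96.5 ± 13 and Cd63 at 81.9 ± 1.2 CPM per kilobase on top and Gpnmb at 0.787 ± 0.21. In cKO at 4 weeks Spp1 led with 287 ± 115, Fabp5 (151 ± 9.8) and Cd63 (145 ± 29) overlapped, and Gpnmb at 4.37 ± 0.66 stood above Mitf at 2.78 ± 0.21, without overlap. Gpnmb was thus below Mitf in both control groups and above it in both cKO groups. Transcript lengths were those of another annotation release than the counts may have used.

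Among the cKO libraries of 4 weeks, library 1 was the lowest for 7 of the 10 genes and library 2 the highest for 6. The highest cKO library of 4 weeks held 2.40 times the level of the lowest for Spp1, 1.51 times for Cd63, 1.42 times for Lgals3 and 1.35 times for Gpnmb. Summed CPM of 9 microglial markers (P2ry12, Tmem119, Csf1r, C1qa, Cx3cr1, Aif1, Fcrls, Siglech and Sall1) had the same lowest library, with 706 CPM in library 1 against 1154 and 1124 CPM in libraries 2 and 3. At 4.5 weeks the spread for Gpnmb and Cd63 was 1.07-fold and 1.03-fold, and for Spp1 1.51-fold.

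The microglial marker sum was 333 to 349 CPM in the controls of 4 weeks, 706 to 1154 CPM in cKO of 4 weeks, 316 to 321 CPM in the controls of 4.5 weeks and 3547 to 4041 CPM in cKO of 4.5 weeks. Of the 9 markers 7 rose and 1, Sall1, fell at 4 weeks, beside 20.1% and 17.2% of all genes. At 4.5 weeks 8 rose and 0 fell, beside 33.3% and 32.6%, with Siglech at log2 0.01 not called. The markers that rose did so unequally, from 0.73 on the log2 scale for P2ry12 to 5.48 for Fcrls at 4.5 weeks, so a sum over them is not a count of cells. Against this sum, Gpnmb was 0.630 to 1.05 CPM per 100 CPM of markers in the controls of 4 weeks and 1.40 to 1.97 in cKO. At 4.5 weeks it was 1.07 to 1.25 in the controls and 59.3 to 70.3 in cKO, a 54.6-fold higher mean.

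Spp1 per 100 CPM of markers had means of 42.4 and 42.3 in control and cKO at 4 weeks and 44.0 and 136 at 4.5 weeks. For Lgals3 the means were 1.76 and 4.88 at 4 weeks and 2.14 and 4.83 at 4.5 weeks. Plin2 was lower per marker sum in cKO at 4 weeks (3.71 against 6.47) and overlapped the controls at 4.5 weeks (6.72 against 5.98). Cd63, Fabp5 and Mitf were lower per marker sum in cKO at both times, with 0.514, 0.148 and 0.173 times the control mean at 4.5 weeks. Gpnmb and Lgals3 were thus the only 2 of the 7 well-counted genes with higher values per marker sum in cKO at both times, and Spp1 was higher at 4.5 weeks. In CPM, Cd63, Fabp5 and Mitf were higher in cKO at 4.5 weeks, and which cells held each transcript was not tested.

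**Figure D3:**
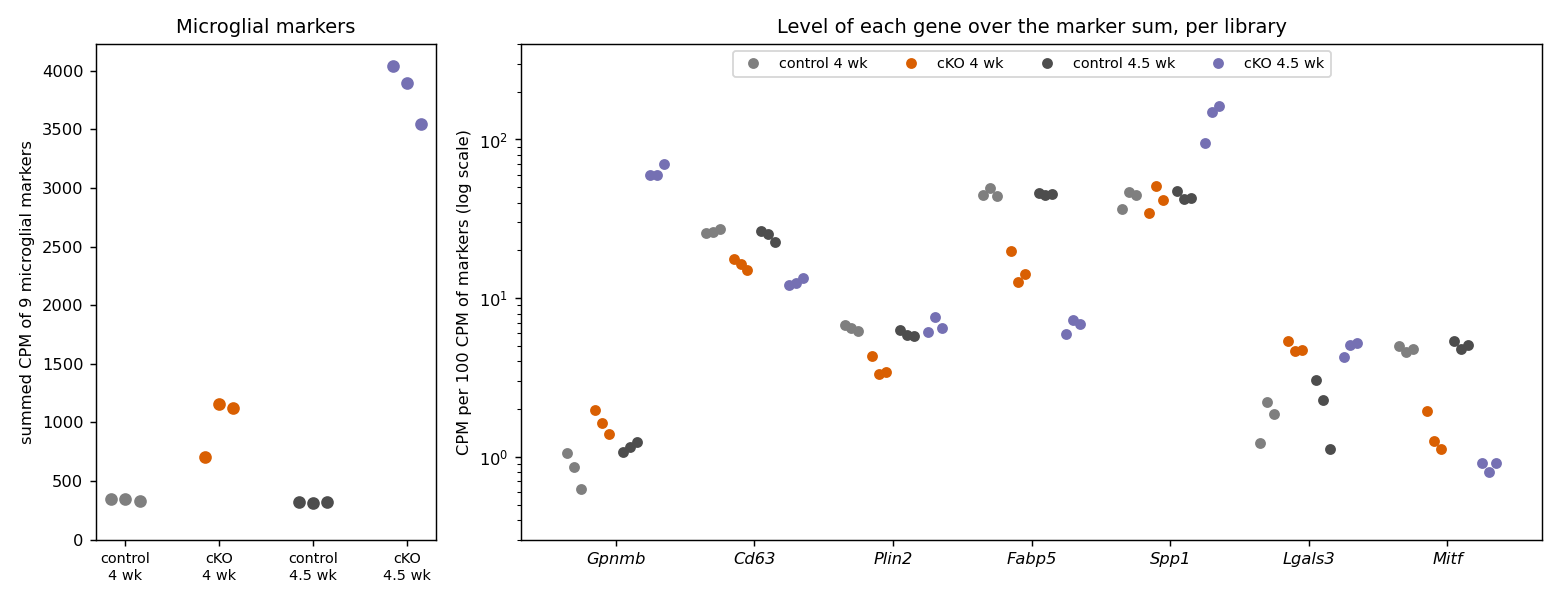
Left, summed CPM of 9 microglial markers per library and group; right, CPM of 7 genes per 100 CPM of those markers in each library (logarithmic axis), 3 points per group. Gpnmb stands at 59.3 to 70.3 in cKO at 4.5 weeks and at most at 1.25 in the controls, whereas Fabp5 and Mitf are lower per marker sum in cKO.

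Markers of other cells that make Gpnmb or Spp1 were also summed, and their part in the members' levels was not tested. Osteoclast markers (8 genes) summed to 28.9 to 33.6 CPM in the controls of 4.5 weeks and 54.9 to 56.1 CPM in cKO. Of these genes Acp5 rose (log2 fold change 4.52 ± 0.512, adjusted p = 5.07e-06) as did Nfatc1 (2.22, adjusted p = 6.04e-09), while Ctsk was lower (-0.67, adjusted p = 0.00814) and so was Mmp9. The fusion genes Ocstamp and Dcstamp had means of at most 0.2 CPM. Melanocyte markers (9 genes) summed to 1.58 to 2.04 CPM in the controls of 4.5 weeks and 4.54 to 5.42 CPM in cKO, with Pmel at 1.88 CPM. Of the 4 with counts past the filter, 3 were called higher and 0 lower (median log2 fold change 1.69), beside 33.3% and 32.6% of all genes. Tyr and Tyrp1 were at 0 in cKO library 2, and no marker was at 0 in cKO libraries 1 and 3. Bone markers were at 41.9 to 82.7 CPM in the controls and 59.4 to 79.6 CPM in cKO, adipocyte markers at 0.313 to 3.86 and 4.13 to 6.23 CPM with Lep at 0 in all 6 libraries of 4.5 weeks.

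Among other myeloid cells, border macrophage markers summed to 5.28 to 26.6 CPM in the controls of 4.5 weeks and 31.5 to 37.0 CPM in cKO. Of the 6 markers, 2 were called higher and 0 lower (median log2 fold change 1.03), beside 33.3% and 32.6% of all genes. Lyve1 at log2 0.09 and Cd163 at 0.36 were among those not called. Monocyte markers summed to 34.8 to 38.9 CPM in the controls and 309.7 to 350.1 CPM in cKO. Of the sum in cKO, Vcan, also a gene of oligodendrocyte progenitors, held 311 CPM on average. Of the 6 monocyte markers, 4 were called higher and 0 lower (median log2 fold change 2.66), beside 33.3% and 32.6% of all genes. Neutrophil markers were at 7.52 to 16.5 CPM in the controls and 11.5 to 15.1 CPM in cKO, and of 6 tested 1 was called higher and 1 lower. Ly6g was at 0 in the 3 controls of 4.5 weeks and the 3 cKO libraries of 4 weeks. It was above 0 in the 3 cKO libraries of 4.5 weeks and the 3 controls of 4 weeks. At 4 weeks the osteoclast, melanocyte, border macrophage and neutrophil sums of cKO overlapped the controls. The monocyte sum was 41.4 to 67.8 CPM in cKO against 31.2 to 31.9 CPM, and the bone sum 97.1 to 136 CPM against 57.3 to 81.2 CPM. Single bone markers went both ways at 4 weeks, with 2 of 8 called higher and 3 lower, beside 20.1% and 17.2% of all genes. Their median log2 fold change was -0.42, so the bone sum and this median went in opposite directions. Oligodendrocyte markers (7 genes) summed to 22332 to 24734 CPM in the controls and 11001 to 14881 CPM in cKO at 4 weeks, and to 19736 to 20095 and 7793 to 8338 CPM at 4.5 weeks. Schwann cell markers were at 768 to 955 and 259 to 363 CPM at 4 weeks and at 705 to 957 and 219.96 to 234 CPM at 4.5 weeks, and astrocyte markers at 4966 to 5511 and 2793 to 4464 CPM and at 5758 to 6032 and 4723 to 5188 CPM. Motor neuron markers, whose cells can make Spp1, were at 335 to 388 CPM in cKO of 4 weeks and 123 to 187 CPM in cKO of 4.5 weeks, against 281 to 341 and 368 to 492 CPM in the controls.

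Relatives of the 10 genes are given by family, beside 20.1% of all genes called higher and 17.2% lower at 4 weeks and 33.3% higher and 32.6% lower at 4.5 weeks. Of the perilipins, Plin4 rose at 4.5 weeks (log2 fold change 3.75 ± 0.372) like Plin2, Plin5 rose less (1.34 ± 0.454, adjusted p = 0.0194), Plin3 fell at both times (-0.99 ± 0.122 and -0.40 ± 0.120), and Plin1 of adipocytes was not called. The fatty acid binding proteins Fabp7 of astroglia (1.53 ± 0.131) and Fabp4 (2.12 ± 0.659) rose with Fabp5 at 4.5 weeks, none of the 5 rose at 4 weeks, and Pmp2 of peripheral myelin fell at 4 weeks (-2.88 ± 0.936, adjusted p = 0.0288). Lgals3bp, a galectin-3 binding protein listed with the galectins, and the galectins Lgals9 and Lgals1 were higher at both times. They were at 4.12, 2.73 and 1.74 on the log2 scale at 4.5 weeks. Lgals4 fell at 4 weeks (-1.52 ± 0.239), and Lgals8 was called at neither time.

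For the mucolipins, Mcoln1, the widely expressed lysosomal channel, was lower at both times (-0.38 ± 0.063 and -0.18 ± 0.063, adjusted p = 0.0220 at 4.5 weeks), and Mcoln2 went from 3 control counts to 172 cKO counts at 4.5 weeks (ratio 62.8, counting interval 21.1 to 307). Of the 9 V0 subunits of the proton pump, 5 rose and 4 fell at 4.5 weeks, beside 33.3% and 32.6% of all genes. The 5 include Atp6v0d2, a member chosen with these results known. Tcirg1, the a3 subunit of osteoclasts and macrophages (2.90 ± 0.121), and Atp6v0e (1.87 ± 0.058) rose beside Atp6v0d2, Atp6v0a2 and Atp6v0b. Atp6v0d1, the common form of the d subunit, fell slightly (-0.19 ± 0.056, adjusted p = 0.00851), as did Atp6v0a1, Atp6v0e2 and Atp6v0c. Of 7 tetraspanins, 6 rose at both times, the member Cd63 among them, and Cd82 fell at both. Cd53 (4.71), Cd37 (4.04) and Cd9 (3.22) were above Cd63 in log2 fold change at 4.5 weeks and Cd151 (1.11) and Cd81 (0.44) below it.

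**Figure D4:**
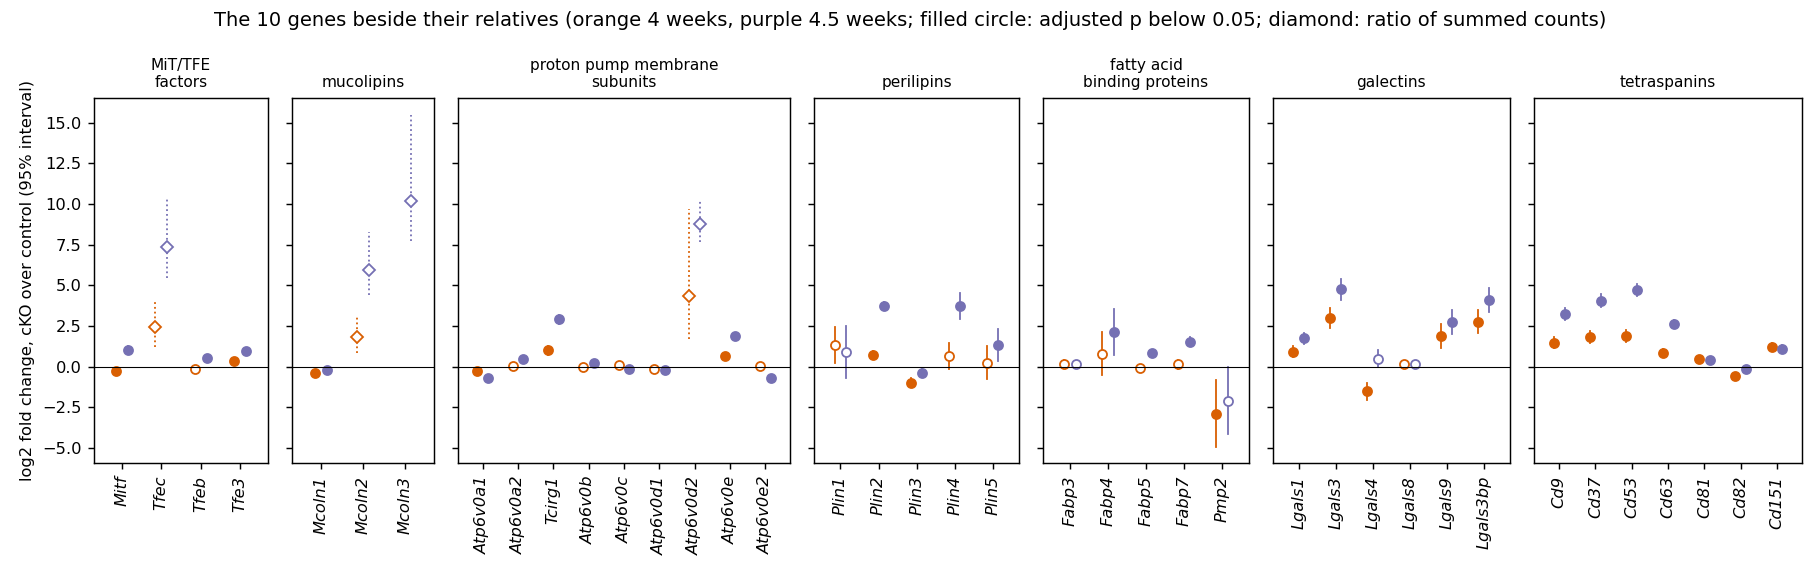
Log2 fold change of cKO over control (y axis) with 95% intervals for the family members, orange at 4 weeks and purple at 4.5 weeks; filled circles are called, open circles not called, and diamonds are ratios of summed counts for low-count genes. Tcirg1 and Atp6v0e lie above 0 and Atp6v0d1 and Atp6v0a1 below 0 at 4.5 weeks, and Mcoln1 is the mucolipin below 0.

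The other genes of MiT/TFE control went both ways, as all genes did. Of 13 genes besides Mitf and Tfec, 4 rose and 4 fell at 4 weeks (median log2 fold change -0.12), beside 20.1% and 17.2% of all genes, and 7 rose and 5 fell at 4.5 weeks (median 0.50), beside 33.3% and 32.6%. Fnip2, a partner of folliculin, rose at both times and most at 4.5 weeks (2.75 ± 0.071), where Tfe3 (0.93 ± 0.080), Fnip1 (0.92), Flcn (0.86), Rragc (0.79), Tfeb (0.56 ± 0.088, adjusted p = 0.000103) and Lamtor1 (0.50) also rose. Rragb (-1.56 ± 0.109), Mtor (-0.92), Rraga (-0.67), Rragd (-0.39) and Mcoln1 fell, and Rptor was called at neither time. Tfeb and Flcn were not called at 4 weeks (-0.15 and -0.18).

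Of 28 lysosomal genes known as MiT/TFE targets, 12 rose and 5 fell at 4 weeks (median 0.14), beside 20.1% and 17.2% of all genes, and 19 rose and 8 fell at 4.5 weeks (median 1.24), beside 33.3% and 32.6%. Among those that rose were the proteases Ctsd (2.02 ± 0.096 at 4 weeks and 4.68 ± 0.108 at 4.5 weeks), Ctsb (0.92 and 3.18) and Ctsa (0.43 and 2.97) and the glycan-degrading enzyme Naglu (0.94 and 3.91). The 8 that fell at 4.5 weeks were Gaa, the autophagy receptor Sqstm1 (-0.33 ± 0.050) and 6 proton pump genes, Atp6v0a1, Atp6v0d1, Atp6v1a, Atp6v1b2, Atp6v1c1 and Atp6v1h, with log2 fold changes of -0.81 to -0.19. Those that fell at 4 weeks were Lamp1 (-0.30), Gaa, Atp6v1a, Atp6v0a1 and Atp6ap1, and Lamp1 rose at 4.5 weeks (0.99 ± 0.057), when Atp6ap1 (-0.06) was not called.

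In the list of 20 genes of lipid uptake, storage and efflux in phagocytes, 12 rose and 2 fell at 4 weeks (median 1.06), beside 20.1% and 17.2% of all genes, and 19 rose at 4.5 weeks (median 3.46), beside 33.3%, with Fabp3 not called. Trem2, a lipid-sensing receptor of microglia, went from 2.31 ± 0.104 at 4 weeks to 5.39 ± 0.115 at 4.5 weeks, Cd68 from 3.13 to 6.57, Lpl, a lipase, from 2.41 to 5.33, and Abca1, the cholesterol exporter, from 1.07 to 4.05. The 2 that fell at 4 weeks were Npc1, which moves cholesterol out of lysosomes (-0.59 ± 0.074), and Soat1, which makes cholesteryl ester (-0.27 ± 0.076), and both rose at 4.5 weeks (0.31 and 1.67). Lipa, Nceh1 and Abcg1 were not called at 4 weeks and rose at 4.5 weeks by 2.19, 0.50 and 1.58. Of 10 receptors of osteopontin and Gpnmb, 6 rose and Itgb3 fell at 4 weeks, and 9 rose at 4.5 weeks, namely Itga5 (4.27), Itgb5 (2.97), Cd44 (2.08), Itga8 (2.05), Itga4 (1.76), Itgb1 (1.26), Itgav (0.96), Itgb3 (0.59) and Sdc4 (0.39), with Itga9 (0.33) not called.

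The candidates for likeness were 13941 tested genes with a mean of at least 1 CPM and no provisional symbol, which left out Tfec. The genes most like Gpnmb over the 12 libraries were found among them by Pearson correlation of log2 CPM. They were Gpr34 (r = 0.998), Man2b1 (0.998), Abcc3 (0.997), Sgpl1 (0.996), Cd33, Naglu, Pde3b (each 0.995) and Abca1 (0.995). Gpr34 and Cd33 are receptors of microglia, Man2b1 and Naglu lysosomal hydrolases, and Abcc3 and Abca1 exporters. The coefficients reflect mainly the steps between the 4 groups, which these genes share, and libraries of a group are close to each other. Plin2 came in at rank 20 (0.993), Spp1 at 91 (0.987), Atp6v0d2 at 99 (0.987), Cd63 at 232 (0.979), Mcoln3 at 398 (0.971), Fabp5 at 1366 (0.920), Lgals3 at 1489 (0.913) and Mitf at 1866 (0.886). Gpr34 rose by 0.90 ± 0.081 on the log2 scale at 4 weeks and 3.48 ± 0.083 at 4.5 weeks, and Abcc3 by 1.42 ± 0.165 and 4.95 ± 0.161, against 2.47 and 9.35 for Gpnmb.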

How the data were processed

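The authors deposited 1 table per time of estimated counts per gene, not scaled by depth or length; the submitters' processing notes list STAR, RSEM and, as build, mm39, and the gene annotation and tool versions are not given in the sources used here. Per the labels, libraries were made with a TruSeq v2 kit, which does not mark strand, so overlapping genes cannot be told apart. Members and gene lists were chosen with earlier results of these data known. A symbol was missing for 6753 genes, kept by identifier, and 27 date-like symbols were restored.

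Counts were rounded and fitted in R 4.3.3 with edgeR 4.0.16 (low-count filter over the 4 groups, trimmed mean of M values, 1 quasi-likelihood fit of 12 libraries, Benjamini-Hochberg adjustment over 19278 genes, call at adjusted p below 0.05). Library totals of 33104560 to 47677267 counts set the precision: a group of 3 controls at 4 weeks with no count allows up to 0.0268 CPM. Every adjusted p and, unless a ratio of summed counts is named, every log2 fold change with SE comes from this fit; ratios of summed counts carry exact 95% intervals for counting error only. Log2 CPM used a pseudocount of 0.5. Transcript lengths came from GENCODE M21 (longest principal transcript) and promoters from RefSeq GRCm38.p6, not the build of the counts; they were matched by gene identifier or symbol.

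The text names the 10 members, the 8 genes most correlated with Gpnmb, every detected gene of the small families, and of the lysosomal and lipid lists the 4 called genes with the smallest p and those called lower or, at 4.5 weeks, not called; the genes not called at 4 weeks are named in part. Families in part share genes: Fabp3, Fabp4, Cd9 and Acp5 stand in the lipid list and a family or marker list. A few genes of the lists were taken out of the lists and their sums and counts, and are not reported here. Alternatives were DESeq2 1.42.0 and limma-voom 3.58.1, other scaling and filters, each time alone, a replicate block, a sex term, removal of 2 control libraries, and each library left out. Same-numbered control and cKO libraries did not deviate together, so the main fit has no block.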

Additional observations from a re-analysis of the deposited data

Results flagged for a closer look

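The genotype effect differed between 4 and 4.5 weeks for 68 of the 89 named genes, 8 of them members, by the test of the difference itself (edgeR, adjusted p below 0.05). Many of these genes were chosen for their values in the same contrasts, so nothing is read from this count against the 40.7% of all genes called. Values below are the log2 effect at 4.5 weeks minus that at 4 weeks. The members' own difference was part of what chose them, so it is a description: Gpnmb 6.88, Tfec 4.71, Spp1 3.62, Plin2 3.05, Cd63 1.80, Lgals3 1.76, Mitf 1.32 and Fabp5 0.91. For the 3 low-count members the call depends on the method: Atp6v0d2 and Mcoln3 were not called by edgeR but by DESeq2 and limma-voom, and Tfec kept its call in 9 of 20 alternatives and went to 0.62 without control library 1 of 4 weeks.

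The genes most like Gpnmb had larger effects at the later time: Abcc3 3.54, Abca1 2.98, Naglu 2.98, Cd33 2.71, Gpr34 2.59, Man2b1 2.05, Sgpl1 1.91 and Pde3b 1.80. They were chosen for a pattern that includes this step. Among lysosomal genes, Ctsd had 2.66, Ctsa 2.53, Ctsb 2.26 and Lamp1 1.29, while Atp6v1h (-0.77), Sqstm1 (-0.57), Atp6v1b2 (-0.55), Atp6v1c1 (-0.39) and Atp6v1a (-0.38) went the other way. In the lipid list the differences were 3.46 for Acp5, 3.44 for Cd68, 3.08 for Trem2, 2.92 for Lpl, 2.16 for Lipa, 1.94 for Soat1, 1.58 for Abcg1, 0.90 for Npc1 and 0.65 for Nceh1.

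Among regulators of MiT/TFE factors the difference was 2.45 for Fnip2, 1.03 for Flcn, 0.74 for Fnip1, 0.71 for Tfeb, 0.61 for Rragc and 0.58 for Tfe3, and -1.18 for Rragb, -0.48 for Mtor, -0.41 for Rraga and -0.27 for Rragd. Relatives of the proton pump subunit had 1.91 (Tcirg1), 1.20 (Atp6v0e), 0.43 (Atp6v0a2), 0.26 (Atp6v0b), -0.37 (Atp6v0a1) and -0.69 (Atp6v0e2). Mcoln2 had 3.96 on few counts, Plin4 3.11, Plin3 0.58, Fabp7 1.38, Lgals4 2.02, Lgals3bp 1.36 and Lgals1 0.80. The tetraspanins Cd53 (2.85), Cd37 (2.23), Cd9 (1.74) and Cd82 (0.41) and the receptors Itga5 (2.29), Itga4 (1.95), Itgb5 (1.88), Itgb3 (1.25), Itgb1 (0.96), Itgav (0.62) and Itga8 (0.57) complete the set.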

How the results depend on the processing

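At 4.5 weeks 10 members were called under each alternative run, and in the comparison of the controls none was. At 4 weeks the 8 calls fell to 5 when each time was fitted alone, where fewer members passed the filter, and lay at 6 to 8 with each library left out in turn. For the difference between the times the 8 calls ranged over 7 to 10, and over 7 to 8 with a library left out. Lysosomal calls at 4 weeks stayed at 12 to 20 beside 17, and lipid calls at 12 to 15 beside 14. Of the single-gene results, 463 kept direction and side of the threshold, 25 lost the call, 8 gained it and 1 reversed: Fabp5 at 4 weeks, at 0.0053 with a sex term (the cause was not tested). The calls lost were those of Mcoln3 and Mitf at 4 weeks and of Tfec for the difference between the times. Over all genes, calls at 4 weeks went from 7179 to 4548 with the sex term. Calls between the controls went from 3227 to 0 with the sex term and to 1313 to 3772 with a library left out. By Xist the controls of 4 weeks were male and those of 4.5 weeks female, so time and sex cannot be separated among them. The sex term rests on male library 3 against female libraries 1 and 2 of cKO at 4 weeks, so no conclusion is drawn from the fall to 0. With a replicate block, Mcoln3 at 4 weeks had a log2 fold change of 4.14 and the Tfec difference was 4.82, and neither was called. The deviations of same-numbered control and cKO libraries from their group means correlated at -0.13 to 0.05. Whether such libraries shared a litter or a batch was not tested.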
